A study of Mus musculus with 24 samples.

Results

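Cdx2 binding was described at 44 genes of the BMP and TGF-β signalling pathways in mouse colon organoids. They were chosen by name as ligands, receptors, Smads, inhibitors, secreted antagonists and targets. A gene was counted as having Cdx2 in a library when the summit of at least 1 peak of that library lay in its gene body or within 10 kb to either side (GENCODE vM21, mm10). All 44 were among the 21938 annotated protein-coding genes, and 27 of the 44 had a peak in at least 1 of the 12 libraries. Their windows held 84 of the 61454 consensus regions, which are the merged overlapping peaks of the 12 lists, and no region lay in the windows of more than 1 member.

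The normal organoids came from proximal and distal colon of 3 female mice and had been maintained over 4 months in WENR-plus medium, which supplies Wnt3a, EGF, Noggin and R-spondin 1. WENR-minus organoids were plated with these factors present for 2 days and then held for 3 days with all of them left out, so the withdrawal of Noggin cannot be told apart from that of the others. All groups share the genotype, heterozygous for a Cre-inducible BRAFV600E allele and for a tdTomato reporter, neither of which is switched on until Cre acts. Each of the 4 combinations of site and medium had 3 Cdx2 ChIPmentation libraries, numbered 1 to 3. ChIPmentation is chromatin immunoprecipitation in which a transposase adds the sequencing adapters. A site bound in fewer cells and a site bound more weakly in every cell cannot be told apart in such bulk chromatin.

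BMP and TGF-β ligands are secreted dimers that join type II and type I receptor kinases. The activated type I receptor phosphorylates receptor Smads, which enter the nucleus with Smad4 and change transcription, the Id genes being classical targets of the BMP branch. In the intestine BMP signalling is strongest towards the differentiated cells at the surface and is held low around the stem cells at the crypt base by secreted antagonists such as Noggin, Gremlin 1 and Chordin. Noggin is therefore a standard component of organoid media. Cdx2 is the homeobox factor that sets intestinal identity in this epithelium.

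The sequences at 6 of the member regions are printed as examples. Acvr1b holds the sole printed region that was called in all 12 libraries. Smurf2 and Id2 are shown for a large difference between proximal and distal libraries, though not every such region is printed. Bmp2, Bmpr2 and Smad3 were added after their values had been seen. Each line gives the mm10 sequence from 50 bp before the median summit to 50 bp after it. Capitals mark a match to the Cdx2 motif, taken as TTTATG or TTTATT followed by A or G, or the reverse complement of these.
Acvr1b (intron, chr15:101181201-101181301, plus strand): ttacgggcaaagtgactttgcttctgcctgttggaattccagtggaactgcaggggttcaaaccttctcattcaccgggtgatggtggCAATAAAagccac
Bmp2 (upstream, chr2:133550745-133550845, plus strand): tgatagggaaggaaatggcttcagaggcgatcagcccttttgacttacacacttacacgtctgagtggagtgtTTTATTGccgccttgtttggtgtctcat
Bmpr2 (intron, chr1:59798057-59798157, plus strand): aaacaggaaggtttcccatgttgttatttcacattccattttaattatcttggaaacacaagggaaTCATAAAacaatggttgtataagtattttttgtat
Smurf2 (intron near the 3′ end, chr11:106828295-106828395, plus strand): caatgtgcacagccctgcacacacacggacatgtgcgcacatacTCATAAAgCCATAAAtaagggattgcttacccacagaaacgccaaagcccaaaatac
Id2 (upstream, chr12:25106843-25106943, plus strand): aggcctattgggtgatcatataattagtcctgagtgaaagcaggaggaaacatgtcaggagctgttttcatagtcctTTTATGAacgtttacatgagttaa
Smad3 (upstream, chr9:63761490-63761590, plus strand): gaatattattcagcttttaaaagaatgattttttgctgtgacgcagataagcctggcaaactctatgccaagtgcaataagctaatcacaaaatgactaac

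The Smurf2 window held 2 matches, which start 6 bp before and 2 bp after the median summit, and the Smad3 window held none. Not printed were the Bmpr1a region in the last exon (6 proximal and 0 distal libraries) and the Smad2 region called in all 12 libraries. Neither had a match within 50 bp of its median summit, so the printed set does not show how common matches were. Of the 84 member regions, 44 had a match within 50 bp of the median summit (52.4%, 95% Wilson interval 41.8 to 62.7%). Among all 61454 regions the share was 60.4%. Windows placed 1000 bp to either side had a match in 9.52% of cases for the member regions and in 11.7% for all regions. Member regions called in at least 6 libraries had a match in 15 of 27 (55.6%, interval 37.3 to 72.4%), against 71.1% of all 12225 regions of that breadth. A match is a stretch of letters and not a measured binding site.

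Most member regions lay in introns, 63 of 84. A further 3 lay in exons, 10 upstream of the gene and 8 downstream of it. Within 3 kb of a protein-coding start site were 13 of 84 (15.5%, interval 9.27 to 24.7%), against 10.5% of all regions. By their definition member regions lie in a gene or within 10 kb of it, while all regions include those far from any gene. A higher share near start sites is therefore partly built in. The regions ranged from those seen once to those seen everywhere. In 1 library only were 28 (33.3%), against 42.2% of all regions, and in at least 6 libraries were 27 (32.1%), against 19.9% of all regions. The median gene length of the members was 39.5 kb, against 17.4 kb for all protein-coding genes, so the windows of the members were longer. The part of gene length in these shares was not tested.

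**Figure D1:**
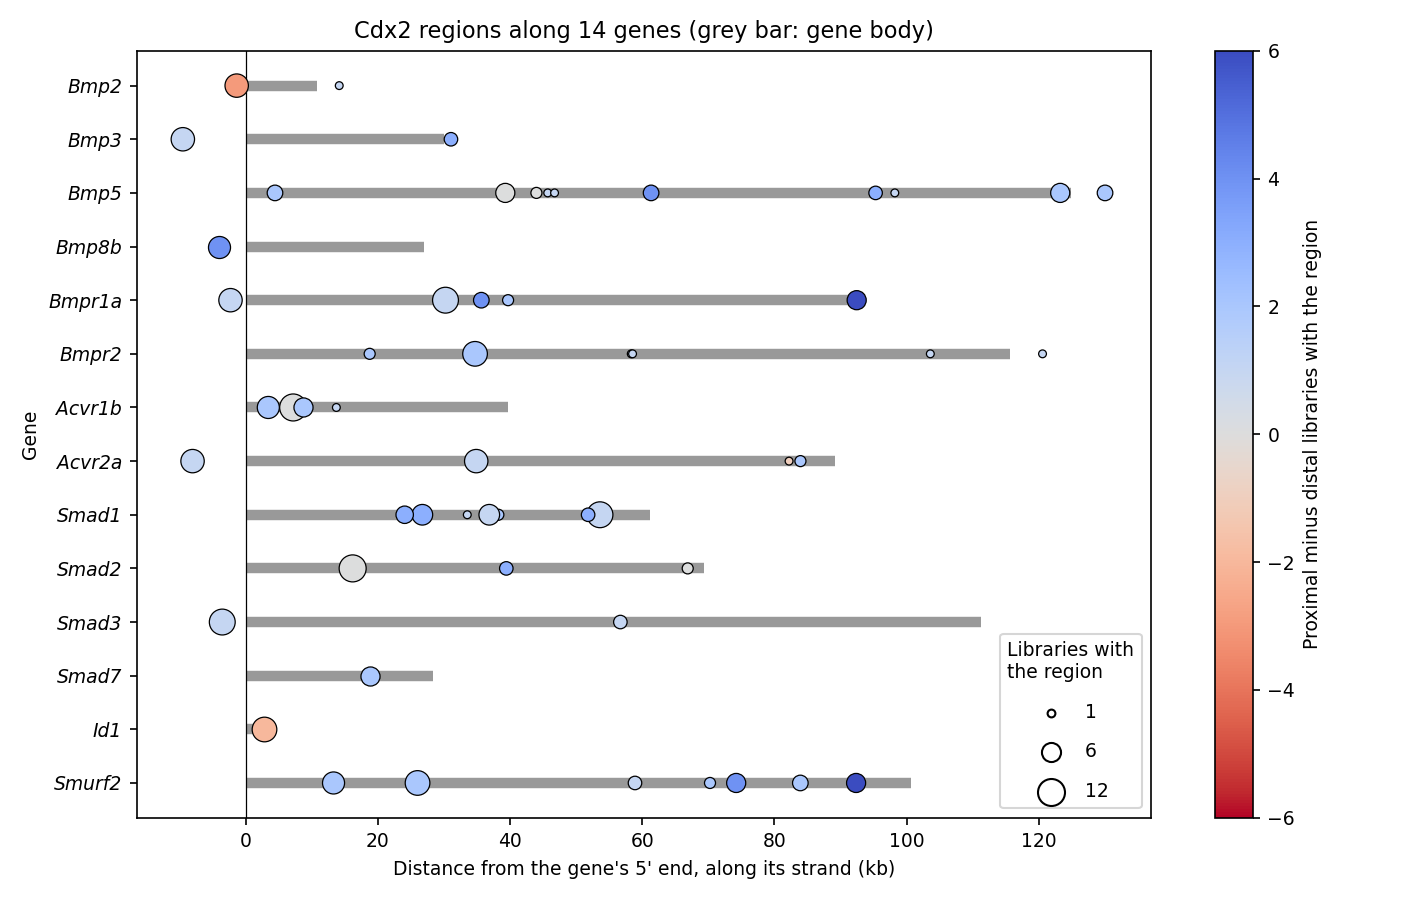
Cdx2 regions along 14 member genes: the horizontal axis is the distance in kb from the 5′ end of the gene along its strand, the grey bar is the gene body, each circle is a consensus region sized by the number of libraries that called it, and its colour is the number of proximal minus distal libraries. Bmp2 and Id1 have their leading region in more distal than proximal libraries, while Bmpr1a and Smurf2 each have a region near the 3′ end in 6 proximal and 0 distal libraries.

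The 12 peak lists differed in length, and the number of members with a peak moved with it. The lists held 5608 to 42192 peaks on chromosomes 1 to 19, X and Y. In proximal WENR-plus organoids 20, 22 and 16 members had a peak in replicates 1, 2 and 3, and in proximal WENR-minus organoids 22, 14 and 15. In distal WENR-plus organoids the numbers were 11, 16 and 10, and in distal WENR-minus organoids 18, 10 and 13. The means were 19.3 ± 3.06, 17.0 ± 4.36, 12.3 ± 3.21 and 13.7 ± 4.04 in the same order of groups (SD, n = 3 each). Over all protein-coding genes the mean shares with a peak were 36.7%, 27.9%, 17.4% and 20.5%, so the members and the background fell together from proximal to distal. When every list was reduced to its 5608 strongest peaks by p-value, the means were no longer lower in distal organoids. They were then 6.33 ± 1.15, 7.33 ± 2.52, 8 ± 1.73 and 8.67 ± 2.52, and the ranges of the groups overlapped. Over all genes the shares were then 12.8%, 12.5%, 12.7% and 12.2%, and the difference between the sites among the members was within the spread of the libraries.

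**Figure D2:**
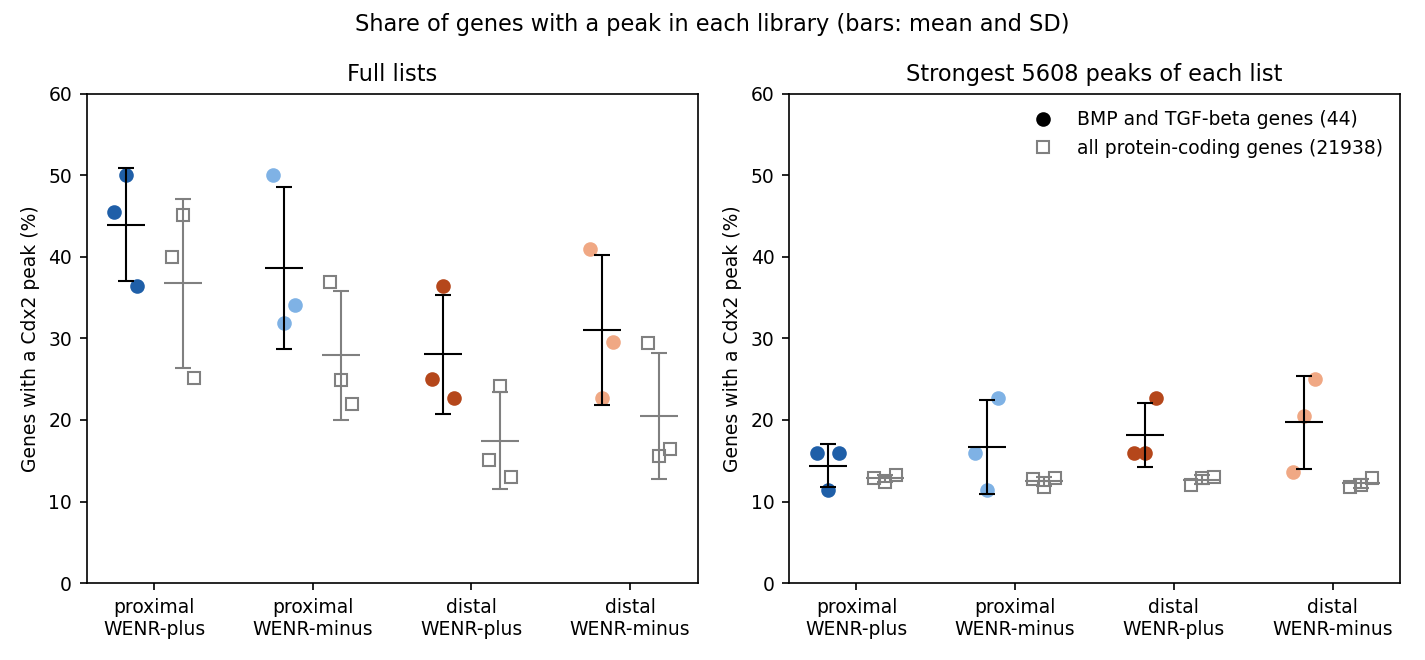
Share of genes with a Cdx2 peak in each library, in percent, for the 44 members (filled circles) and all 21938 protein-coding genes (open squares), from the full lists (left) and from equally long lists (right), with bars for the mean and SD of 3 libraries. The members stood above the background in each library of the full lists, and the fall from proximal to distal was absent from the equally long lists.

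With any peak at all were 61.4% of the members and 54.8% of all protein-coding genes. In all 12 libraries were 3 members (6.82%), against 6.77% of all genes. Those 3 were Bmpr1a, Acvr1b and Smad2. The 17 members without a peak in any library were Bmp4, Bmp7, Bmp8a, Tgfb1, Tgfb2, Tgfb3, Inhba, Inhbb, Acvrl1, Smad6, Smad9, Smurf1, Nog, Grem1, Chrd, Fst and Id4. They include the 5 TGF-β and activin ligands and the 4 secreted antagonists, so that neither of these role groups had any member with Cdx2 nearby at this depth. By contrast 10 of 11 receptors and 5 of 6 signal-carrying Smads had a peak, as did 6 of 9 BMP ligands, 3 of 4 Id genes and 3 of 5 inhibitors that act in or at the cell. Of these, Bmp1, Acvr2b, Tgfbr2, Smad4 and Smad5 had it in 1 library each. Bmp1 was placed with the BMP ligands by its name, though it encodes a metalloproteinase. Gene length differed between the role groups, and longer genes have longer windows. It was 1.7 to 12.5 kb for the secreted antagonists, 6.78 to 83.2 kb for the TGF-β and activin ligands and 16.8 to 332 kb for the receptors. The part of gene length in this contrast was not tested.

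Peaks were also counted near markers of cell types. The 9 colon epithelial markers (Cdh17, Vil1, Krt20, Car1, Cdx1, Cdx2, Hnf4a, Lgals4 and Muc13) all had a peak in some library and 5 of them in all 12. Lgals4, Muc13, Cdx1 and Cdx2 had a peak in 11, 9, 6 and 5 libraries. Of 6 mesenchymal markers, Col1a2 and Pdgfra had a peak in 9 and 5 libraries, and Vim, Col1a1, Acta2 and Des had none. Of 5 immune markers, Ptprc alone had a peak, in 6 libraries. The study itself names Car1 and Hnf4a as Cdx2 targets. These counts are of binding and not of expression, and they do not show which cells were present.

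**Figure D3:**
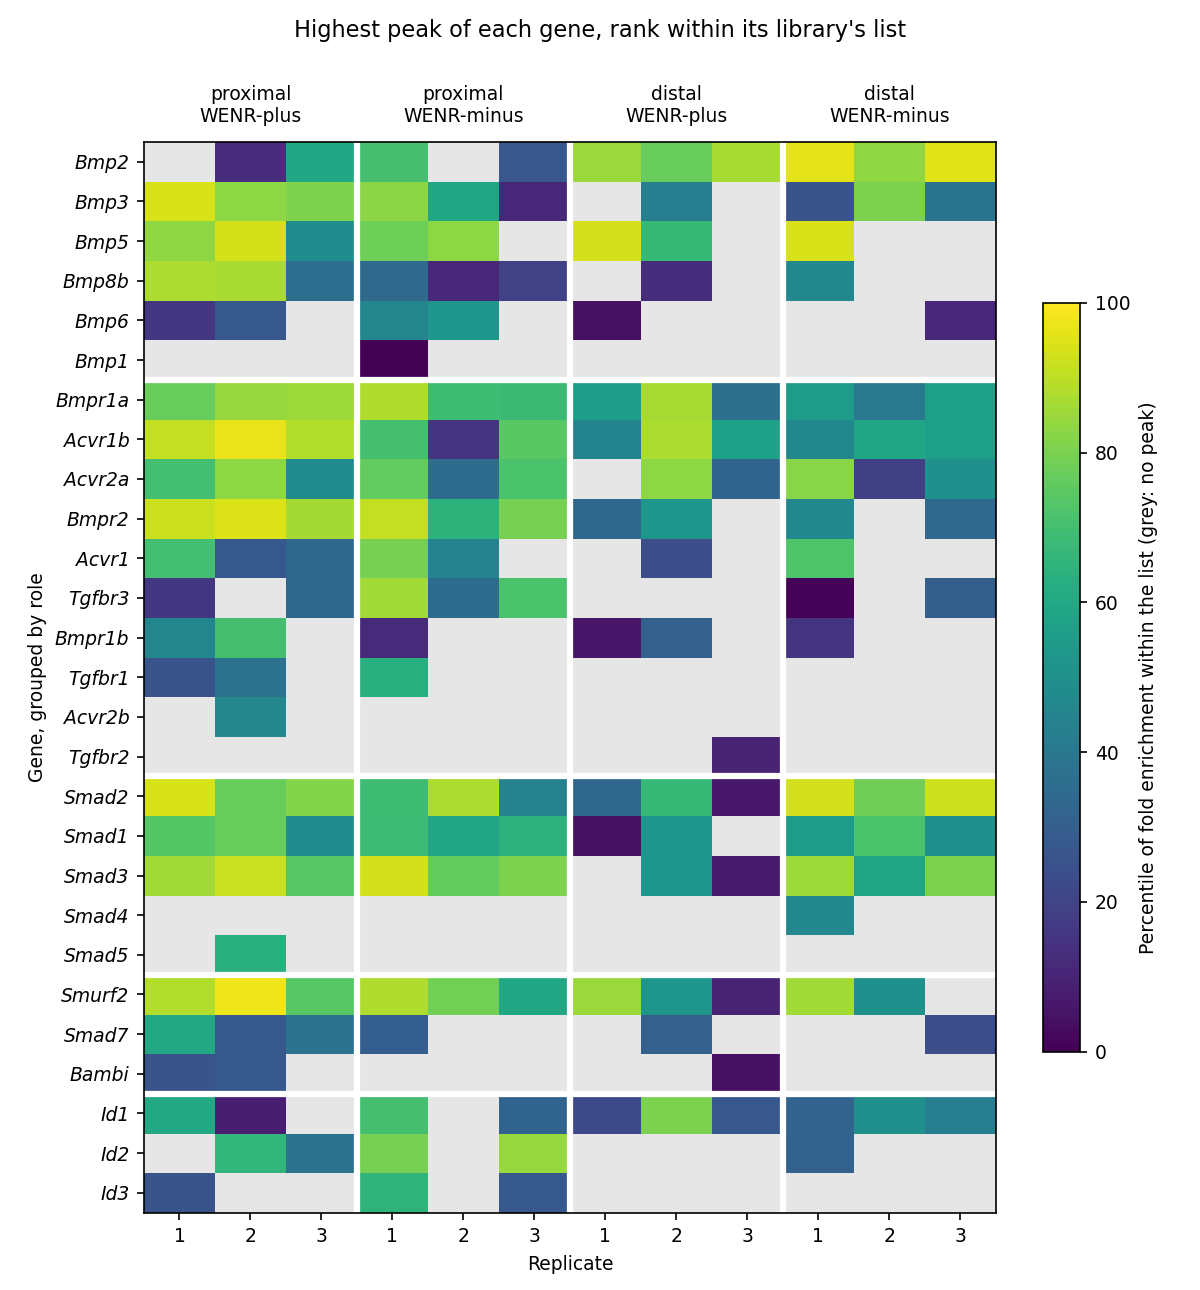
Rank of the strongest peak of each of the 27 members with a peak in the 12 libraries, as the percentile of its fold enrichment within its library's list, with grey for no peak and genes grouped by role. Bmpr1a, Acvr1b and Smad2 are filled in every column, and Bmp2 is brightest in the 6 distal columns.

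Peak strength was compared mainly as a rank. Fold enrichment is given for the Bmp2 region and was used by limma for regions called in all 12 libraries. The percentile of a peak is the share of the peaks of the same list with a fold enrichment at or below its own, 100 being the strongest. The same percentile can stand for peaks of different strength in lists of different length. For the main contrasts of sites, values from lists of unequal length are therefore set beside those of the equally long lists.

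Among the BMP ligands, Bmp2, a ligand of the differentiated epithelium, showed the clearest difference between the sites. Its main region (mm10 chr2:133550499-133551041) lay 1.36 kb upstream of the gene and was the Bmp2 sequence printed above. In distal WENR-plus organoids its percentiles were 85.2, 76.7 and 86.9 in replicates 1, 2 and 3, and in distal WENR-minus organoids 95.8, 83.2 and 95.3. In proximal WENR-plus organoids it was called in replicate 3 alone, at 59.8, and in proximal WENR-minus organoids in replicates 1 and 3, at 70.5 and 27.2. All 6 distal values thus lay above all 6 proximal values, with a library without the peak taken as 0. The fold enrichment was 8 to 13.3 in the distal libraries and 4.92 to 7.05 in the 3 proximal libraries that called it. Fold enrichment depends on the depth of each library, which was not adjusted for in these values. The distal lists tended to be shorter, with 5608 to 21040 peaks against 11409 to 42192 in the proximal lists, and these ranges overlapped. In the equally long lists the region was called in 6 of 6 distal and 0 of 6 proximal libraries. A match to the motif lay within 50 bp of the summit in each of the 9 libraries that called the region. The region was singled out after its values had been seen and carries no test. At the level of the gene, Bmp2 had a peak in 4 proximal and 6 distal libraries (two-sided Fisher's exact test, p = 0.455), since a weak peak downstream in proximal WENR-plus replicate 2 also counts.

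Bmp3, which encodes a BMP that antagonizes others of the family, had a region 9.51 kb upstream (chr5:98844416-98845225) in 5 proximal and 4 distal libraries. Its percentiles were 94.1, 83.0 and 80.5 in proximal WENR-plus organoids, and 82.7 and 11.1 in replicates 1 and 3 of proximal WENR-minus organoids. In distal WENR-plus organoids replicate 2 alone called it, at 42.7, and in distal WENR-minus organoids it reached 25.7, 80.1 and 38.5. The proximal and distal values overlapped. No summit of this region had a motif match within 50 bp.

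Bmp5 had the most regions of any member, 10, spread over its 125 kb gene body and the flank behind it. The region with the highest median percentile among them lay in an exon 123 kb from the gene start and was called in 4 proximal and 2 distal libraries at 63.1 to 93.9. It was missing from all 4 libraries of replicate 3. Bmp8b had a single region 4.02 kb upstream, in 6 of 6 proximal libraries (percentiles 11.3 to 87.5) and 2 of 6 distal libraries (13.3 and 46.7). This was the largest difference between sites at the level of the gene (Fisher's exact test, p = 0.0606, adjusted p = 0.731). In the equally long lists the Bmp8b region was called in 1 proximal and 0 distal libraries, so most of the difference was absent there. Bmp6 had peaks in 4 proximal and 2 distal libraries, none above percentile 52.5. Bmp1, which encodes a metalloproteinase of the matrix and not a BMP of the ligand fold, had 1 peak in 1 library, at percentile 0.535.

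Among the receptors, Bmpr1a, the type I BMP receptor of the intestinal epithelium, had 5 regions and at least 1 of them in each library. Its best percentiles were 76.8, 84.6 and 85.3 in proximal WENR-plus organoids and 88.1, 69.1 and 68.2 in proximal WENR-minus organoids. They were 56.0, 86.8 and 37.1 in distal WENR-plus and 55.2, 40.1 and 56.5 in distal WENR-minus organoids, and the sites overlapped. The most widely called of its regions lay in an intron 30.2 kb from the gene start and was found in 6 proximal and 5 distal libraries. It was found in 2 proximal and 5 distal libraries of the equally long lists, so its lean between the sites was the opposite there. A second, 2.3 kb upstream, was found in 5 proximal and 4 distal libraries.

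The third main region of Bmpr1a, in the last exon 0.149 kb from the gene end (chr14:34410619-34411318), divided the sites. It was called at percentiles 76.8, 79.1 and 85.3 in proximal WENR-plus organoids and at 67.0, 44.6 and 32.2 in proximal WENR-minus organoids, and in 0 of 6 distal libraries. It also lies within 10 kb of Mmrn2, whose start site is 35.2 kb away and nearer than any start site of Bmpr1a. In the equally long lists it was called in 1 proximal and 0 distal libraries, so the division did not hold there.

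Bmpr2, the type II BMP receptor, had its main region in an intron 34.7 kb from the gene start (chr1:59797739-59798612). Its percentiles were 92.1, 94.8 and 86.4 in proximal WENR-plus and 91.0, 64.6 and 79.4 in proximal WENR-minus organoids. In the distal libraries it was called at 33.5 and 52.6 in WENR-plus replicates 1 and 2, and at 46.7 and 34.0 in WENR-minus replicates 1 and 3. Every proximal value lay above every distal value. In the equally long lists it was called in 5 proximal and 2 distal libraries, and proximal WENR-minus replicate 2, without a call, then lay below the 2 distal calls.

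**Figure D4:**
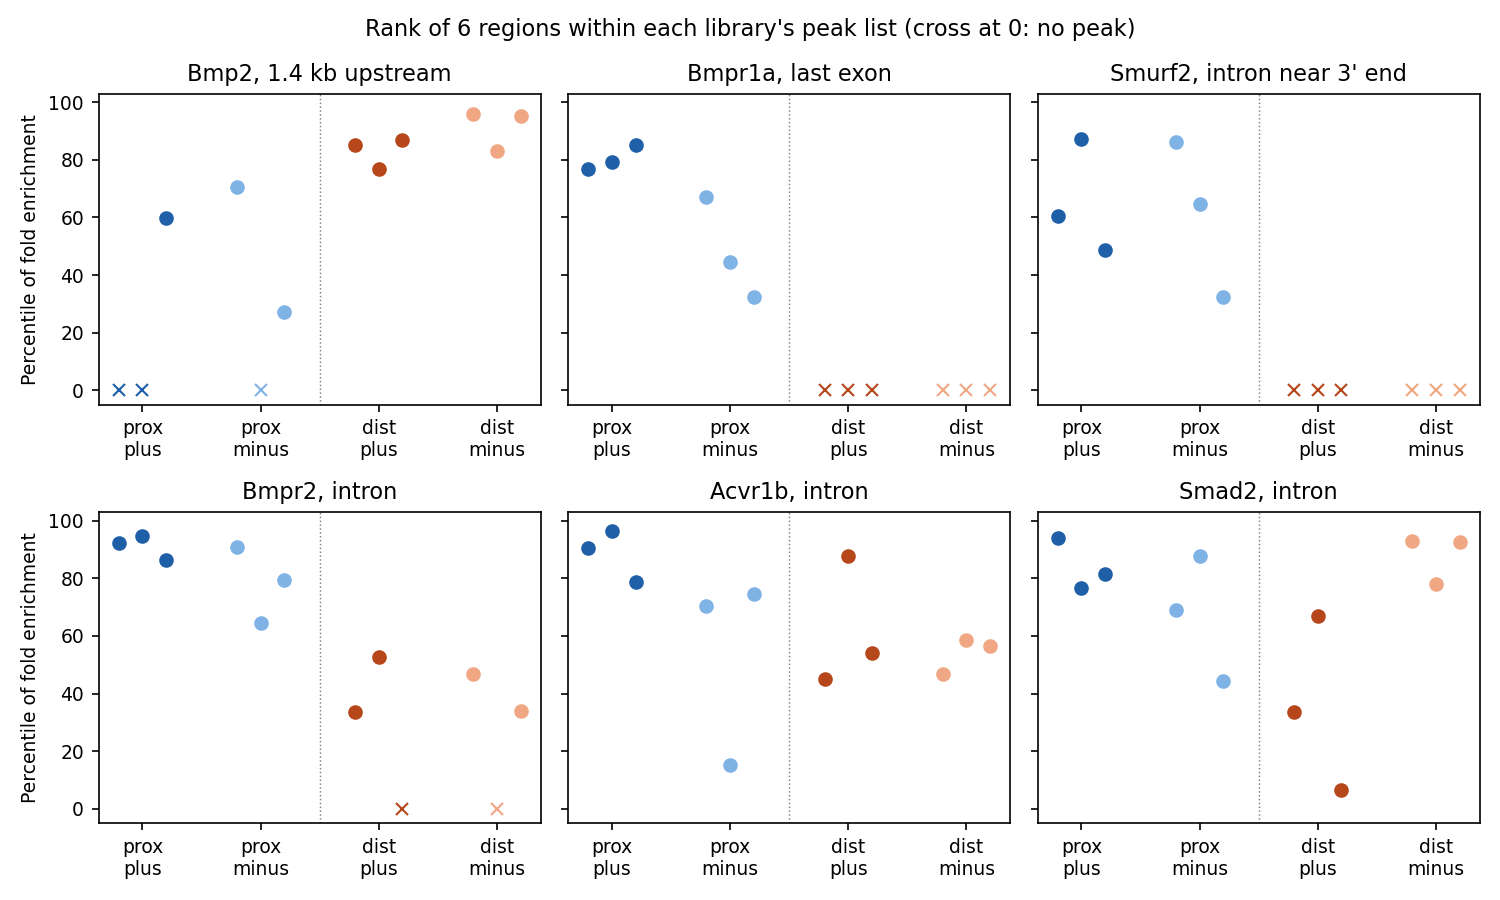
Percentile of fold enrichment of 6 regions in each of the 12 libraries, by group (prox, proximal; dist, distal; plus and minus, the media), with a cross at 0 for a library without the peak. All 6 distal points lie above all 6 proximal points for Bmp2, the order is the opposite for the regions of Bmpr1a, Smurf2 and Bmpr2, and the sites overlap for Acvr1b and Smad2.

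Acvr1b, a type I receptor for activins, had an intron region 7.18 kb from the gene start (chr15:101180971-101181607) in all 12 libraries. Its percentiles were 90.7, 96.5 and 78.6 in proximal WENR-plus, 70.5, 15.1 and 74.5 in proximal WENR-minus, 45.2, 87.9 and 53.9 in distal WENR-plus and 46.7, 58.7 and 56.5 in distal WENR-minus organoids. The fold enrichment could be compared by limma here. It was taken on the log2 scale after the median of each library over the 2079 regions called everywhere had been subtracted. The difference of proximal minus distal was −0.07 ± 0.18 (SE, limma adjusted p = 0.817). The difference of WENR-plus minus WENR-minus was 0.47 ± 0.18, which did not pass adjustment (limma adjusted p = 0.216). Further intron regions 3.42 and 8.75 kb from the gene start were called in 8 and 6 libraries.

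The other receptors had weaker or narrower sets of peaks. Acvr2a, a type II activin receptor, had a region 8.04 kb upstream and another in an intron, each in 5 proximal and 4 distal libraries. The upstream region had a motif match at the summit in all 9 of these. Acvr1 and Tgfbr3, a type I BMP receptor and the co-receptor betaglycan, each had peaks in 5 proximal and 2 distal libraries. The main Tgfbr3 region was called in 1 WENR-plus and 5 WENR-minus libraries, at percentiles 0.82 to 86.2. Bmpr1b had peaks in 3 libraries of each site. Tgfbr1, the type I TGF-β receptor, had peaks in 3 proximal libraries and 0 distal ones (Fisher's exact test, p = 0.182). Acvr2b and Tgfbr2 were called in 1 library each, at percentiles 46.5 and 9.57.

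Among the signal-carrying Smads, both Smads of the TGF-β and activin branch had a strong region. For Smad2 it lay in an intron 16.2 kb from the gene start (mm10 chr18:76257264-76258110) and was called in all 12 libraries. Its percentiles were 94.1, 76.7 and 81.3 in proximal WENR-plus, 68.9, 87.7 and 44.2 in proximal WENR-minus, 33.5, 66.9 and 6.64 in distal WENR-plus and 93.1, 78.1 and 92.4 in distal WENR-minus organoids. All 3 distal WENR-minus values lay above the distal WENR-plus values, while the media overlapped in proximal organoids. By limma the log2 fold difference was −0.27 ± 0.20 for proximal minus distal (SE, adjusted p = 0.396) and −0.29 ± 0.20 for WENR-plus minus WENR-minus (adjusted p = 0.554). The response to the medium was 0.97 ± 0.40 apart between the sites, which did not pass adjustment (limma adjusted p = 0.998). Over all 2079 regions limma called 0 such interactions, with 89 at p under 0.05 before adjustment.

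Smad3, the partner of Smad2, had a region 3.55 kb upstream (chr9:63761031-63762133) in 11 libraries. Its percentiles were 86.3, 91.6 and 74.0 in proximal WENR-plus, 93.2, 76.2 and 80.5 in proximal WENR-minus, 52.6 and 7.28 in distal WENR-plus replicates 2 and 3 and 85.3, 58.7 and 80.3 in distal WENR-minus organoids. The 3 distal WENR-plus values, counting the missing one as 0, were the lowest of the 12. No summit of this region had a motif match within 50 bp in any of the 11 libraries.

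For the BMP branch, Smad1 had 7 regions, all in introns. The leading one (chr8:79345603-79346254) was called in 6 proximal libraries at percentiles 37.2 to 73.8 and in 5 distal libraries at 4.5 to 71.7, and the values overlapped. Smad5 had a peak in proximal WENR-plus replicate 2 alone, at 63.4, and Smad9 had none. Smad4, the common partner of both branches, had a peak in distal WENR-minus replicate 1 alone, at 46.7.

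Of the inhibitors that act in or at the cell, Smurf2, a ubiquitin ligase for Smads and receptors, had 8 regions and a peak in 11 libraries, the exception being distal WENR-minus replicate 3. The region with the highest median percentile lay in an intron 26 kb from the gene start and was called in 6 proximal libraries at percentiles 32.2 to 97.3 and in 4 distal libraries at 50.3 to 86.2. The region near the 3′ end (chr11:106828122-106828625), shown above with its pair of motif matches, was called at 60.4, 87.3 and 48.7 in proximal WENR-plus organoids and at 86.2, 64.6 and 32.2 in proximal WENR-minus organoids. It was called in 0 of 6 distal libraries. It lies 0.661 kb from the start of a shorter Smurf2 transcript and within 10 kb of Cep95. In the equally long lists it was called in 2 proximal and 0 distal libraries. Another intron region, 74.2 kb from the gene start, was called in 5 proximal libraries and 1 distal library.

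Smad7, the inhibitory Smad of both branches, had a single intron region in 4 proximal and 2 distal libraries, at percentiles 24.1 to 60.4. Bambi, a receptor decoy without a kinase, had peaks in 3 WENR-plus and 0 WENR-minus libraries (Fisher's exact test, p = 0.182), none above 27.6. This was the lowest p of any member for the medium.

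Among the targets, Id1 had its region 2.77 kb downstream of the gene start, behind the short gene, in 6 distal and 4 proximal libraries. Its percentiles were 22.2, 80.2 and 27.0 in distal WENR-plus and 32.0, 50.3 and 42.6 in distal WENR-minus organoids, against 60.4 and 8.42 in proximal WENR-plus replicates 1 and 2 and 70.5 and 32.2 in proximal WENR-minus replicates 1 and 3. The sites overlapped in the full lists, while in the equally long lists the Id1 region was called in 0 proximal and 4 distal libraries. Id2 had a region 9.75 kb upstream in 4 proximal and 0 distal libraries, at 65.9, 37.2, 79.7 and 84.4, and a further peak in distal WENR-minus replicate 1. In the equally long lists this upstream region was called in 1 proximal and 0 distal libraries. Id3 had a region behind the gene in 3 proximal libraries, at 26.1 to 65.0.

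The comparison of proximal with distal organoids asked whether the pathway genes carry Cdx2 at a single site. No member had a peak in all 3 libraries of a site and none of the other, in either medium or in both media combined. Over all genes, a proximal-only peak was found for 3.92% in WENR-plus, 1.45% in WENR-minus and 0.593% in both media. A distal-only peak was found for 0.0684%, 0.137% and 0.0182%. In the equally long lists 1 member, Bmp2, was distal-only in WENR-plus, in WENR-minus and in both media, as were 0.346%, 0.378% and 0.0957% of all genes. Of the 27 members with a peak, 19 had it in more proximal than distal libraries, 4 in more distal ones (Bmp2, Tgfbr2, Smad4 and Id1) and 4 in equal numbers. The median difference was 1 library, the same as over the 12018 genes with a peak, of which 74.3% leaned proximal and 6.14% distal. By Fisher's exact test no member reached p under 0.05 before adjustment or after it. Over all 12018 genes 459 did before adjustment and 0 after it. Genes with a peak in 6 libraries of a site and 0 of the other, the most extreme split there can be, had an adjusted p of 0.194, so no gene could pass this adjustment.

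Single regions gave a sharper picture than genes. Among regions called in at least 2 libraries, 2 of 56 member regions were found in each of the 6 proximal libraries but in no distal one, the Bmpr1a and Smurf2 regions at the 3′ ends, against 1.8% of all 35518 such regions. None were distal-only, against 0.0957%. Every proximal percentile lay above every distal one in 3 of 56 member regions (5.36%, with Bmpr2 added), against 3.89% of all. The reverse held for the Bmp2 region (1 of 56), against 0.172% of all. These regions were counted after their values had been seen, and a share near that of all regions says nothing particular of the members. In the equally long lists no member region was above in every proximal library, and the Bmp2 region was above in every distal library, as were 1.32% of 10356 regions. Of the 2079 regions in all 12 libraries, limma called 16.6% different between sites, and neither the Acvr1b nor the Smad2 region was among them.

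The comparison of media asked whether Cdx2 near the pathway genes differs with and without Noggin and the other niche factors, and no member passed its test. In proximal organoids no member had a peak in all WENR-plus and no WENR-minus libraries or the reverse, against 0.693% and 0.0319% of all genes. In distal organoids the counts were again 0, against 0.119% and 0.292%. Of the 27 members with a peak, 10 had it in more WENR-plus libraries, 9 in more WENR-minus libraries and 8 in equal numbers. Over the 12018 genes with a peak the shares were 44.3%, 23.9% and 31.9% in the same order. The difference between members and all genes was not tested. Fisher's exact test gave 0 members under 0.05 before adjustment and 0 after it, with 16 and 0 of all 12018 genes. No member region had every percentile of a medium above every percentile of the other. Over all regions 0.0985% were higher in WENR-plus and 0.031% in WENR-minus medium. By limma 0.673% of the regions in all 12 libraries differed between media at an adjusted p under 0.05, neither of them a member region. With 6 libraries a side and presence or absence as the measure, small differences were not detectable. Even a gene split 6 to 0 between the media (Fisher's exact test, p = 0.00216) did not pass adjustment. This test could therefore call no gene for the medium, and its count of 0 says nothing about large differences.

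A further 62 genes of the pathways, from growth differentiation factors to Smad regulators, were taken as a wider list. Of these 32 had a peak (51.6%, against 54.8% of all genes), 24 of them in more proximal than distal libraries and 0 in more distal ones, against 74.3% and 6.14% of all genes with a peak. Present in all 12 libraries were 6, against 6.77% of all genes, namely Itgb6, Thbs1, Tgif1, Zfyve9, Nedd4l and Wwp1. Zfyve9 encodes the Smad anchor for receptor activation, Tgif1 a Smad corepressor, and Nedd4l and Wwp1 ubiquitin ligases. Itgb6 encodes an integrin chain that releases latent TGF-β. Strap, which encodes an inhibitor of TGF-β receptor signalling, was the sole one in 6 of 6 proximal and 0 of 6 distal libraries. No gene of this list passed adjustment for the site, and 1 and 0 reached p under 0.05 before adjustment for the site and the medium (Fisher's exact test).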

How the data were processed

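Cdx2 ChIPmentation peak lists of 12 libraries (4 groups of 3) were analysed, and the 12 input libraries listed were not analysed here beyond the authors' use of them as controls. Per the submitters' processing notes, the authors used Trimmomatic 0.39 for trimming, Bowtie2 2.4.5 for alignment to mm10 and SAMtools 1.13 for duplicate removal. They then ran MACS2 2.2.7.1 on each library with its own input as control and a q-value cutoff of 0.01. The study's supplement names other versions of Bowtie2 and SAMtools, and which of them made the deposited lists is not settled here. The deposited lists give for each peak a score (made from the −log10 q), the fold enrichment at the summit as a ratio to the local background, the −log10 p-value, the −log10 q-value and the summit offset. The fold enrichment deposited by the authors depends on the depth of each library, so it was ranked within lists. The lists hold no read counts. The study's reporting summary gives the read depth and the share of reads in peaks for each library. Neither was used here, and list length (5689 to 42295 peaks as deposited) stands in their place.

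Only chromosomes 1 to 19, X and Y were used, which left 206283 of 207307 peaks. Peaks that shared 1 bp or more became a single consensus region. Two-sided Fisher's exact tests of 6 against 6 libraries were adjusted (Benjamini-Hochberg) over all genes with a peak. The trend-limma model (limma 3.58.1, R 4.3.3) held 4 group means over regions called in all 12 libraries. Sequences were read from GRCm38, the same assembly as mm10. Python 3.11.15, numpy 2.4.6, pandas 2.3.3, scipy 1.17.1 and pysam 0.24.0 were used. Both kinds of test were tested on simulated data. The labels give replicate numbers without saying which cultures share a mouse, so p-values measure the spread between these libraries. The 12 libraries came from 3 mice, so libraries that share a mouse count separately in the tests of 6 against 6. Their p-values may therefore be too small. Wilson intervals cover counting error only.

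Members in all 12 libraries, members exclusive to a group and members with a Fisher p or adjusted limma p under 0.05 were to be named singly. The other members and regions given values, those called in at least 6 libraries or divided by site among them, were chosen after their values had been seen. The members, role groups and lists were chosen with earlier results of these data known. Alternatives were lists of equal length, a −log10 q of at least 5, other windows, other scalings, a replicate block and leaving out each replicate number.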

Additional observations from a re-analysis of the deposited data

Results flagged for a closer look

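The Bmp3 region upstream of the gene was picked out because its response to the medium, taken between libraries of the same replicate number, ran in opposite directions at the 2 sites for all 3 numbers. The numbers are not shown to pair the libraries. With a missing peak taken as 0, the mean difference of its percentile, WENR-plus minus WENR-minus, was 54.6 in proximal organoids and −33.9 in distal organoids. The contrast between the sites was 88.4 percentile points. This difference was not tested. The same pattern was seen in 1 of 27 member regions called in at least 6 libraries (3.7%) and in 2.02% of all 12225 such regions. The region was called in 9 libraries, and proximal WENR-minus replicate 2 and distal WENR-plus replicates 1 and 3 were the libraries without it. In the equally long lists it was called in 3 proximal and 2 distal libraries, and neither the proximal libraries of replicate 2 nor the distal libraries of replicate 1 held it, so the pattern was not present in every replicate number there.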

How the results depend on the processing

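The number of members with a peak depended on how a peak was tied to a gene. In equally long lists the mean was 6.33 in WENR-plus and 7.33 in WENR-minus medium for proximal organoids, and 8 and 8.67 for distal organoids. In the same order the means were 14, 11.3, 8.67 and 9 with the gene body alone, 29, 24.7, 18.7 and 19 with 50 kb flanks, and 5.33, 4.67, 3.33 and 3.67 within 3 kb of a start site. The shares of all genes fell in the same way, from 23.4% to 11.2% and 13.2% with the gene body alone, from 64.5% to 35.1% and 40% with 50 kb flanks and from 12.6% to 4.68% and 5.69% within 3 kb, each from proximal WENR-plus to the 2 distal groups. A −log10 q of at least 5 gave 15.7 for proximal and 8 for distal organoids in WENR-plus. Without single replicate numbers the means ranged from 18 to 21, from 14.5 to 18.5, from 10.5 to 13.5 and from 11.5 to 15.5. Counts of proximal-only members in WENR-plus rose from 0 to 1 at a −log10 q of at least 5 (3.48% of all genes), to 2 with 50 kb flanks (6.42%) and to 1 within 3 kb of a start site (1.57%). Leaving out a replicate number gave 1 to 5, and the 5 without replicate 2 were Bmp3, Bmp8b, Acvr1, Tgfbr3 and Smad7. Of all genes 5.26%, 7.96% and 12.2% were proximal-only without replicates 1, 2 and 3. In WENR-minus the count was 1 with 50 kb flanks (2.04% of all genes) and 1 without replicate 1, 2 or 3 (3.31%, 3.26% and 2.9% of all genes). WENR-plus-only members in proximal organoids ranged from 0 to 1 and WENR-minus-only members in distal organoids from 0 to 2 without single replicates. Of all genes 3.08%, 1.03% and 4.21% were WENR-plus-only in proximal organoids without replicates 1, 2 and 3. In distal organoids 0.506%, 2.7% and 1.09% of all genes were WENR-minus-only, in the same order. Equally long lists gave 1 distal-only member in WENR-plus, 1 in WENR-minus and 1 in both media, and 1 distal-only region, with 0 proximal-only regions and 0 with every proximal value above. Of all 10356 regions there 0.628% were distal-only, 1.29% were proximal-only and 2.86% had every proximal value above. Without single replicate numbers the regions with every proximal value above numbered 3 to 7, the 7 without replicate 2. The matching shares of all regions are not given here, so these counts say nothing particular of the members. The region alternatives were chosen after seeing the data. Of the 12 same-numbered pairs of libraries 5 had deviations that correlated above 0.1, and the numbers were not taken as pairs. In the study's principal component analysis, the mouse of origin was the largest source of variation in Cdx2 binding. The main limma model had no term for the mouse or the replicate number, so such variation stayed in its error. With a replicate block 0 members passed by Fisher's exact test and 0 member regions by limma, for site and for medium, while limma calls over all regions rose from 345 to 469 for the site and from 14 to 80 for the medium. Under −log10 q of at least 5 no member region remained in all 12 libraries, so limma gave no value. Some alternatives leave fewer peaks or libraries, while others change the window or the model. The causes of these shifts were not tested. No member region was called by limma under any alternative that gave a value. The adjusted Fisher's exact test could call no gene in the first place, and its count of 0 says nothing about stability.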
